A study of Mus musculus with 27 samples.

Results

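ProT cells were compared 12 h after 4-hydroxytamoxifen with ProT cells at 0 h, using 3 libraries in each group, that is 6 of the 27 libraries of the series and every gene of the ProT table. ProT cells are labelled as a mouse cell line, and the sample titles carry the name TALlx. The labels say that TAL1 was induced by way of CreER, a recombinase that 4-hydroxytamoxifen activates, and LoxP, the sites it recombines. The 0 h libraries, whose titles mark them as not given 4-hydroxytamoxifen, carry the same system, so the groups differ in treatment and time. The labels do not name the promoter, the layout of the LoxP sites or the number of clones. The other libraries were ProT cells at 6, 18 and 24 h and thymus from mice with TAL1, with AKT(E17K), which is an active mutant of a growth kinase, with both, or with empty vector. No library without 4-hydroxytamoxifen was present at 12 h, so the agent, the construct and time in culture cannot be told apart. Nothing in the labels says that the 3 libraries of a time were separate cultures, and p-values then cover only the spread between these particular libraries, part or all of which may be technical. The table held 46078 genes, of which 13610 had enough counts across the 15 ProT libraries to be tested.

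TAL1 is a basic helix-loop-helix transcription factor of blood stem and progenitor cells that is normally silenced when thymocytes commit to the T lineage, and its reactivation is common in T cell acute lymphoblastic leukaemia. It binds E-box DNA as a heterodimer with an E protein (the products of Tcf3, Tcf4 and Tcf12), in a complex bridged by LMO1 or LMO2 and LDB1 and joined by GATA and RUNX factors. Early T cell progenitors depend on NOTCH1 signals, of which Hes1, Dtx1 and Il2ra are known readouts, and then rearrange and express T cell receptor genes. Dividing lymphoid cells take up glucose and convert much of it to lactate, and the genes of that pathway are shared targets of MYC, of PI3K/AKT signalling and of hypoxia-inducible factors.

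The libraries held 2660641 to 5367020 counts in genes at 0 h and 4649416 to 6599146 at 12 h. Levels are given as CPM, the counts of a gene relative to the library total, scaled by TMM factors, which correct for differences in library composition, and a count of 0 allowed at most 0.559 to 1.13 CPM at 0 h and 0.455 to 0.645 CPM at 12 h, a limit that covers counting error only. Composition moved with time: overlapping ribosomal RNA genes of chromosome 17 took 16.3%, 17.3% and 13.2% of counts in the 0 h libraries and 11.1%, 6.22% and 5.83% in the 12 h libraries, and the 50 most abundant genes took 34.6% to 39.3% and then 25.8% to 28.9%. Library 1 at 12 h stood somewhat apart from the other libraries of its time in counts not scaled for composition. Its chi-square per degree of freedom over genes was 19.9 and 18.4 against them, where they gave 7.31 between themselves. On the second principal component of TMM-scaled levels (9.64% of the variance), 12 h libraries 1, 2 and 3 stood at -9.11, 14.3 and 33.6. Library 3 was thus the highest there. The part of RNA preparation in the results below was not tested. The T lineage genes Lck and Bcl11b were present in all 6 libraries. Lck, the T cell tyrosine kinase, measured 245, 231 and 234 CPM at 0 h and 238, 244 and 219 CPM at 12 h. Bcl11b, which seals T lineage commitment, measured 287, 319 and 311 CPM and then 362, 303 and 337 CPM. Of 14 listed T lineage markers 12 had enough counts to be tested. Cd2 and Ptcra were nearly absent: Cd2 had 1 count in all at 0 h and 3 at 12 h, and Ptcra had 1 and 23. Cd4, Cd8a and Cd8b1, which mark later thymocytes, had 0 counts in all at 0 h and 1 count each at 12 h.

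Tal1, the gene that the labels name as induced, was abundant before treatment and lower at 12 h. It measured 2895, 3028 and 3098 CPM in the 0 h libraries and 2259, 2227 and 1779 CPM in the 12 h libraries. Every 12 h library thus lay below every 0 h library, an absence of overlap found in 29.6% of all tested genes. The difference was -0.53 ± 0.12 on the log2 scale (estimate ± SE, n = 3 and 3, adjusted p = 0.00509 by edgeR's quasi-likelihood test with Benjamini-Hochberg adjustment over all tested genes, as for every adjusted p here). The gene lies at chr4:115056426-115071755 (GRCm38), and it took 0.260% to 0.297% of all counts at 0 h and 0.187% to 0.236% at 12 h. Its share was 0.3314%, 0.3285% and 0.2839% in the 6 h libraries, 0.2238%, 0.2244% and 0.2346% at 18 h, and 0.2155%, 0.2169% and 0.2004% at 24 h. The direction of the Tal1 counts at 12 h thus went against the label. Counts per gene do not separate transcripts of the construct from those of the native gene. Without scaling for composition the difference was -0.34 and its adjusted p was 0.0541.

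Among 27 genes of the TAL1 complex, Tal1 included, 22 were tested, 2 rose and 4 fell. For comparison, 6.33% of all tested genes rose and 5.69% fell, and the median log2 difference was 0.10 in the list and -0.006 over all tested genes. With scaling to the total count the balance turned round, to 5 higher and 2 lower (median 0.29). Lmo2, the bridging factor of the complex (chr2:103957986-103981878), fell from 13.8, 7.37 and 12.1 CPM to 3.48, 4.44 and 4.92 CPM, a log2 difference of -1.37 ± 0.28 (adjusted p = 0.00173 by edgeR). Ldb1, the dimerising adaptor (chr19:46031570-46045214), fell from 138, 102 and 102 CPM to 78.7, 58.7 and 72.1 CPM (log2 -0.69 ± 0.13, adjusted p = 0.000595). The groups did not overlap for either adaptor, as for 29.6% of all tested genes. Sp1, a ubiquitous zinc finger factor (chr15:102406143-102436404), rose from 81.2, 83.3 and 93.4 CPM to 122, 113 and 126 CPM (log2 0.48 ± 0.12, adjusted p = 0.00715). A weaker pair of calls concerned single-stranded DNA-binding cofactors of LDB1. Ssbp2 fell by 0.49 on the log2 scale (adjusted p = 0.0231), but the adjusted p was 0.158 with scaling to the total count, 0.109 and 0.063 when 0 h library 1 or 2 was left out, and 0.0921 and 0.0683 when 12 h library 1 or 2 was. Ssbp3 rose by 0.43 (adjusted p = 0.0387), and the adjusted p was 0.0641, 0.191 and 0.0628 when 0 h library 1, 2 or 3 was left out and 0.184 and 0.0515 when 12 h library 1 or 2 was.

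The other tested members were not called, and their log2 differences from 0 h are given without a direction being claimed. Lyl1, the closest relative of Tal1, measured 47.3, 57.5 and 59.6 CPM at 0 h and 72.4, 70.4 and 66.8 CPM at 12 h (0.34, adjusted p = 0.0554). At 24 h, compared with the same 0 h libraries, Lyl1 was higher by 0.66 (adjusted p = 0.000278). Values for the DNA-binding partners were 0.32 for Gata3, 0.42 for Gata2, 0.32 for Runx1, 0.23 for Cbfb and 0.11 for Etv6. Those for the LIM-domain and adaptor proteins were -0.43 for Lmo1, 0.05 for Lmo4 and -0.003 for Ssbp4, and those for corepressor and chromatin subunits ran from -0.30 for Cbfa2t3 to 0.18 for Cbfa2t2, with Chd4, Kdm1a, Sin3a, Hdac2 and Hdac1 in between. The E proteins that pair with TAL1 did not pass the test either: Tcf12 measured 193, 231 and 210 CPM and then 216, 197 and 231 CPM, and the log2 differences were 0.02 for Tcf12, -0.02 for Tcf3 and -0.15 for Tcf4. Their inhibitors gave -0.28 for Id1, -0.24 for Id2 and 0.07 for Id3. Thus 0 of 6 tested genes of this list were called, beside 12% of all tested genes. Tal2 and Lmo3 had no counts in any of the 6 libraries.

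**Figure D1:**
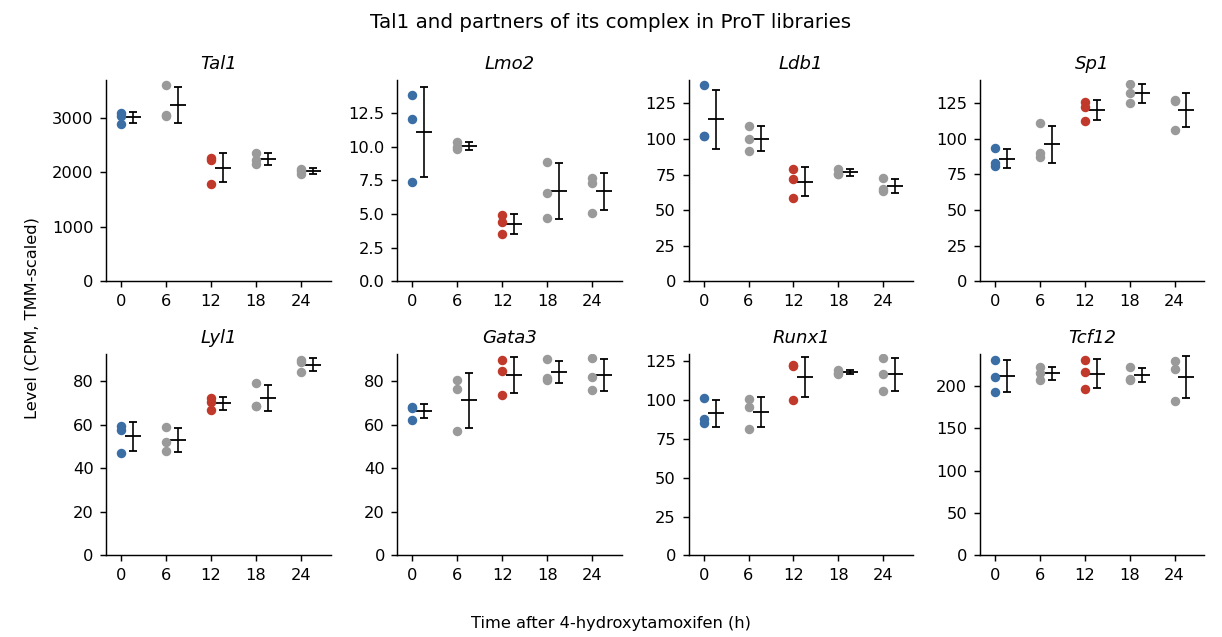
Levels of Tal1 and 7 genes of its complex in each ProT library, in TMM-scaled CPM on axes that start at 0, against hours after 4-hydroxytamoxifen. Dots are libraries (blue 0 h, red 12 h, grey other times) and the black mark with its bar is the mean ± SD of 3; Tal1, Lmo2 and Ldb1 sit lower at 12 h than at 0 h, Sp1 sits higher, and Lyl1, Gata3, Runx1 and Tcf12 were not called.

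Over the whole transcriptome, 1635 of 13610 tested genes (12%) differed between 12 h and 0 h, with 861 higher and 774 lower. Most differences were modest: 309 of the called genes reached 2-fold, of which 93 were higher and 216 lower, and the median size among called genes was 0.63 on the log2 scale. The 12 h and 0 h libraries did not overlap for 29.6% of all tested genes, called or not. The near-even split depended on the correction for composition. With scaling to the total count alone, the median of all tested genes moved to 0.18 and 2380 genes were called, of which 2041 (85.8%) were higher, against 52.7% higher with TMM. The count also rested on 2 libraries, falling to 918 without 0 h library 1 and to 819 without 0 h library 2. At 6 h, compared with the same 0 h libraries, edgeR called 0 genes. Before adjustment 734 genes had a p under 0.05 there, and no adjusted p went below 0.1955. The 6 h libraries were uneven. The 50 most abundant genes took 28.03% of counts in 6 h library 1, within the 12 h range. They took 38.06% and 36.42% in 6 h libraries 2 and 3, within the 0 h range. Whether the absence of calls at 6 h depended on 6 h library 1 was not tested, so it does not show that no gene had changed by then. Between 6 h and 12 h edgeR called 1477 genes (10.9%), which became 2434 without 6 h library 1, 890 without 12 h library 2, and 657 and 798 without 6 h library 2 or 3. Between 12 h and 18 h, 7 genes were called (0.0514%, all higher at 18 h), and between 12 h and 24 h, 26 genes (0.191%).

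**Figure D2:**
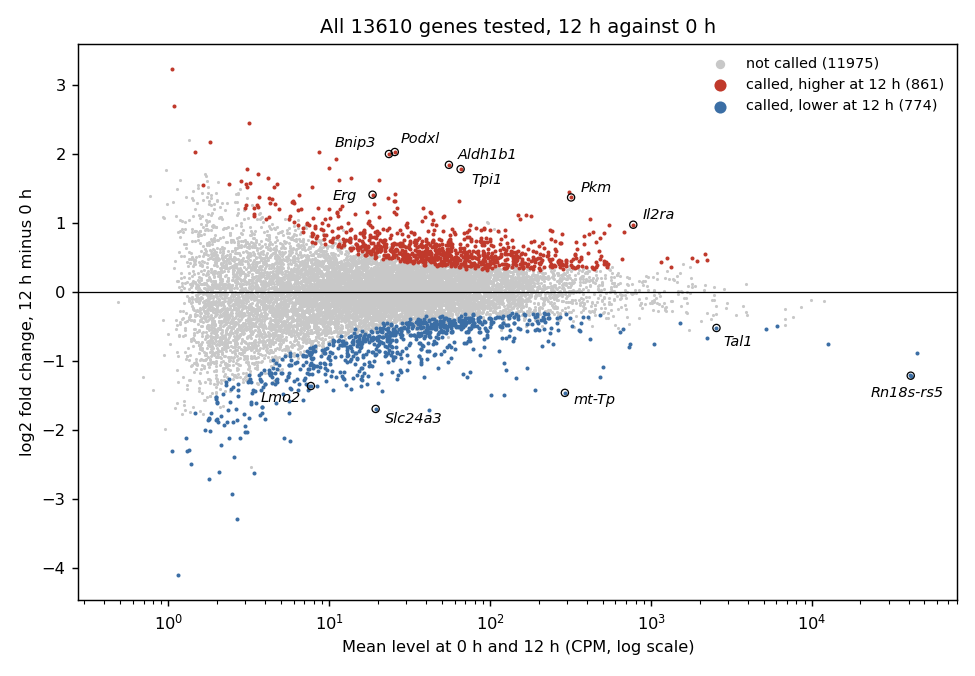
Log2 difference between 12 h and 0 h (vertical axis) against the mean level in CPM (horizontal log axis) for the 13610 tested genes, with 861 called higher in red, 774 called lower in blue and the rest in grey. Circled genes are named in the text; Podxl, Bnip3, Aldh1b1, Tpi1, Erg, Pkm and Il2ra lie above 0, and Slc24a3, Lmo2, mt-Tp, Rn18s-rs5 and Tal1 lie below.

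The largest rises among genes of at least 10 CPM were in surface, metabolic and transcription factor genes. Genes ranked among the 15 largest rises or falls had to be called and to have no overlap of libraries. Non-overlap is thus no finding for them, and 29.6% of all tested genes had it. Podxl, the sialomucin podocalyxin (chr6:31519488-31563981), rose from 10.5, 11.9 and 8.18 CPM to 36.1, 40.1 and 46.3 CPM (log2 2.03 ± 0.19, adjusted p = 1.66e-07). The lowest 12 h library was thus far above the highest 0 h library. Aldh1b1, a mitochondrial aldehyde dehydrogenase (chr4:45799022-45804604), rose from 28.4, 23.5 and 21.6 CPM to 92.6, 79.9 and 86.1 CPM (log2 1.84 ± 0.20, adjusted p = 9.03e-07). Neither gene differed between 12 h and 24 h in a test of that interval (log2 -0.27 for Podxl and -0.09 for Aldh1b1, adjusted p = 0.653 and 0.912). Erg, an ETS factor of blood stem cells (chr16:95359169-95586593), rose from 7.95, 8.5 and 13 CPM to 27.7, 25.2 and 28.9 CPM (log2 1.41 ± 0.19, adjusted p = 1.44e-05). Others among the 15 largest were Ccdc109b, a subunit of the mitochondrial calcium uniporter (1.80, adjusted p = 0.000156), Grhpr, a glyoxylate reductase (1.66, adjusted p = 3.14e-05), and Isg20, an interferon-induced exonuclease (13.8, 15.3 and 10.5 CPM to 29.3, 37.8 and 32.4 CPM, log2 1.36, adjusted p = 2.12e-05). Serpina3g, a serpin, and Ndrg2 rose by 1.62 and 1.52, and the other genes of these 15 belong to the glucose and hypoxia group described below.

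The largest falls were in a calcium exchanger, signalling and scaffold genes and a set of small RNAs. Slc24a3, a potassium-dependent sodium and calcium exchanger (chr2:145167754-145642166), fell from 28.4, 32.3 and 28.4 CPM to 11.2, 7.65 and 8.40 CPM (log2 -1.70 ± 0.17, adjusted p = 4.36e-07). Specc1 fell from 34.7, 28.1 and 30.4 CPM to 13.2, 10.9 and 9.84 CPM (log2 -1.43 ± 0.19, adjusted p = 1.27e-05). Rgs10, a brake on G protein signalling, fell from 15.1, 22.1 and 22 CPM to 5.95, 7.65 and 9.43 CPM (log2 -1.41 ± 0.23, adjusted p = 0.000174). Slc24a3 was thus 3.25-fold lower at 12 h. As for the rises, absence of overlap between the groups was a condition for ranking these falls. Ahnak, a very large scaffold protein, fell by 1.35 on the log2 scale and Parp3, a DNA-repair polymerase, by 1.37 (adjusted p = 0.000171 and 3.77e-05). Mef2c, a transcription factor of lymphoid progenitors that is overexpressed in some immature T cell leukaemias, fell from 36.4, 35.1 and 42 CPM to 18.3, 16.2 and 17.4 CPM (log2 -1.14 ± 0.14, adjusted p = 9.9e-06). Its level at 24 h was 16.1, 18 and 18.9 CPM.

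Small RNA genes made up 6 of the 15 largest falls. The mitochondrial proline tRNA gene mt-Tp went from 516, 427 and 342 CPM to 155, 168 and 140 CPM (log2 -1.47, adjusted p = 3.89e-05), and 14 of 20 tested mitochondrial tRNA genes fell with 0 rising (median -0.97). Of 61 tested small nucleolar RNA genes, 11 fell and 0 rose (median -0.72). Over all tested genes 5.69% fell and 6.33% rose. The 2 mitochondrial ribosomal RNA genes fell (median -0.82), as did 4 of 13 mitochondrial messenger RNA genes (median -0.40). Of these messenger RNA genes 2 fell without 0 h library 1 or 2 or without 12 h library 2, 6 without 12 h library 3, and 2 with scaling to the total count (median -0.21). These classes are read unevenly by library preparation, and the share of reads in no annotated feature moved with them, from 21.1% to 22.2% at 0 h down to 18.8% to 19.4% at 12 h. With 40 ribosomal and mitochondrial genes left out of totals and scaling, 1612 genes were called.

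Genes of glucose metabolism and of the hypoxia response rose together at 12 h. Of 39 listed genes 36 were tested, of which 24 rose and 0 fell, beside 6.33% and 5.69% of all tested genes, and the median log2 difference was 0.82 beside -0.006. This list, like the others here, was chosen with earlier results of these data known. Its count beside those shares is thus a description and no test. The summed level of the listed genes was 1362 to 1567 CPM in the 0 h libraries and 2818 to 3059 CPM in the 12 h libraries. Leaving out any library kept the number that rose at 23 to 24.

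Most steps from glucose entry to lactate were represented. Slc2a1, the glucose transporter GLUT1 (chr4:119108711-119137983), rose from 10.04, 9.07 and 10.5 CPM to 23.4, 28.3 and 40.8 CPM (log2 1.62 ± 0.21, adjusted p = 1.27e-05). The hexokinases Hk1 and Hk2 rose by 0.72 and 0.54, the isomerase Gpi1 by 0.80, and the phosphofructokinase subunit Pfkp by 0.77. Its liver-type sister Pfkl rose from 15.1, 10.5 and 16 CPM to 42.7, 37.9 and 30.7 CPM (log2 1.42 ± 0.19, adjusted p = 1.6e-05). Slc2a1 and Pfkl were among the 15 largest rises, for which absence of overlap between the groups was a condition. Aldoa, the aldolase (chr7:126795234-126800751), rose from 148, 158 and 188 CPM to 473, 440 and 444 CPM (log2 1.45 ± 0.15, adjusted p = 4.36e-07). Tpi1, triosephosphate isomerase (chr6:124810586-124814296), rose from 24.3, 30.3 and 32.7 CPM to 90.9, 102 and 112 CPM (log2 1.78 ± 0.15, adjusted p = 3.75e-08). The rise of Tpi1 was 3.43-fold, and Tpi1 and Aldoa were ranked under the same condition.

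The lower steps of the pathway followed. Pgk1, phosphoglycerate kinase (chrX:106187100-106203699), rose from 88.3, 88.7 and 105 CPM to 182, 206 and 226 CPM (log2 1.11 ± 0.14, adjusted p = 9.13e-06). Pgam1, phosphoglycerate mutase, rose by 1.05 and Eno1, enolase, by 0.90 (adjusted p = 9.13e-06 and 7.35e-05). Pkm, the pyruvate kinase of dividing cells (chr9:59656368-59679375), rose from 162, 171 and 199 CPM to 474, 455 and 447 CPM (log2 1.37 ± 0.15, adjusted p = 1.48e-06), although 15.3% of its exon bases are shared with another annotated gene. Ldha, which makes lactate, rose from 89.9, 109 and 117 CPM to 214, 223 and 249 CPM (log2 1.11 ± 0.14, adjusted p = 9.13e-06). Pdk1, which keeps pyruvate out of the mitochondrion, rose from 51.5, 51.3 and 50 CPM to 81.9, 90.1 and 108 CPM (log2 0.87 ± 0.12, adjusted p = 3.77e-05). For Pgk1, Ldha and Pdk1 all 12 h levels lay above all 0 h levels. Such absence of overlap occurred in 29.6% of all tested genes and was a condition for ranking Pkm among the 15 largest rises. Gapdh, which has many near-identical copies in the mouse genome, was counted at 7.95 to 9.54 CPM in these 6 libraries and was not called (log2 0.23, adjusted p = 0.575), so that its level is uncertain.

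Classical targets of hypoxia-inducible factors rose as well, while the factor's own transcript was not called. Bnip3, a mitophagy receptor (chr7:138890836-138909519), rose from 7.53, 10.8 and 9.34 CPM to 31.5, 33.7 and 48 CPM (log2 1.997 ± 0.22, adjusted p = 1.67e-06). Ankrd37, an ankyrin repeat gene induced in low oxygen (chr8:45996902-46005707), rose from 3.35, 2.55 and 3.89 CPM to 10.9, 8.41 and 22.3 CPM (log2 2.02 ± 0.37, adjusted p = 0.000644). Both share part of their exon bases with another annotated gene, 26.4% for Ankrd37 and 22.3% for Bnip3, so some of their reads may have been lost as ambiguous. Egln3, an oxygen-sensing prolyl hydroxylase, rose from 44.3, 54.4 and 52.8 CPM to 96, 89.2 and 113 CPM (log2 0.96, adjusted p = 1.43e-05), and its relative Egln1 rose by 0.74. Plod2, a collagen lysyl hydroxylase outside the list, rose from 40.6, 44.8 and 38.4 CPM to 57.6, 63.5 and 87.9 CPM (log2 0.75, adjusted p = 0.000696). In 12 h library 3 all 6 of Ankrd37, Bnip3, Slc2a1, Plod2, Egln3 and Pdk1 were higher than in the other 12 h libraries. Hif1a measured 42.2, 42.2 and 53.7 CPM and then 50.1, 46.4 and 53.3 CPM (log2 0.10, adjusted p = 0.657). Vegfa, Car9 and Slc16a1 were not called either, at 0.49, 0.53 and 0.14.

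Hypoxia-inducible factors bind a short core, ACGTG. The 3 promoters printed are those of the highest-ranked rises that had a promoter entry, Podxl having none. The promoters of the highest-ranked falls with an entry, Slc24a3, Specc1 and Rgs10, held 0 matches each and are not printed. The windows are the 250 bases before the RefSeq gene start in GRCm38.p6, 5′ to 3′ on the gene's strand, and capitals mark ACGTG or its reverse complement CACGT. Ankrd37 (chr8:45999851-46000100, minus strand) holds 2 matches. Bnip3 (chr7:138909507-138909756, minus strand) holds a CACGTG, where 2 matches on opposite strands overlap and which is itself an E-box (CANNTG). Aldh1b1 (chr4:45798772-45799021, plus strand) holds none. The last bases of the Ankrd37 and Bnip3 windows overlap the first exon of some GENCODE transcripts.
Ankrd37: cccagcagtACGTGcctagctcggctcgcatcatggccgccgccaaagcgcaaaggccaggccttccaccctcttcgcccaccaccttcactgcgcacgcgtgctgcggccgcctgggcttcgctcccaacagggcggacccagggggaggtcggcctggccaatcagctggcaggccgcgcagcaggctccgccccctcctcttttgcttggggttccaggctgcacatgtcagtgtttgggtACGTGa
Bnip3: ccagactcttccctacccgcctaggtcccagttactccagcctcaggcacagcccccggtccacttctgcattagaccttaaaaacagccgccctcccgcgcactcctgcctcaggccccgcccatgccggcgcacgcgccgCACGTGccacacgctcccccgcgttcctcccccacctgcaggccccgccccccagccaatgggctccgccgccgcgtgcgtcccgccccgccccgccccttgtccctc
Aldh1b1: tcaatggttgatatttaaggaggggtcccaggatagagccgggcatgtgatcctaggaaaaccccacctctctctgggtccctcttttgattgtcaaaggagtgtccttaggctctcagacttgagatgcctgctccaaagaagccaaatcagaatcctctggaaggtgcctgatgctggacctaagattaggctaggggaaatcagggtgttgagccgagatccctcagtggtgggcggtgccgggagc
The motif was chosen after the values were seen. On either strand it occurred in 16.6% of all 32851 promoters of the table, in 22.4% of the 8451 that matched tested genes, in 23.6% of those of genes that rose and in 17.8% of those of genes that fell. Not all glycolysis and hypoxia genes tested had a promoter entry. Among those with an entry it occurred in 17 of 32 tested members (53.1%) and in 11 of the 21 that rose (52.4%). Members that rose and members tested thus held it about equally often. An E-box occurred in 55.7% and GATAA in 14.5% of promoters of tested genes. A match describes the letters of the window and says nothing of binding.

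The rise of this group was largest at 12 h among the times sampled. Its median log2 difference from 0 h was 0.11 at 6 h, 0.82 at 12 h, 0.56 at 18 h and 0.24 at 24 h, each against the same 0 h libraries. In the direct comparison of 24 h with 12 h, 10 of the 36 genes fell and 0 rose, where 0.154% of all tested genes fell and 0.0367% rose, and the median was -0.53. Leaving out 1 library gave 8 to 14 genes lower at 24 h, the highest without 12 h library 1. Between 12 h and 18 h 0 members were called. Bnip3 returned to 8.89, 10.1 and 10.4 CPM at 24 h (24 h minus 12 h -1.94, adjusted p = 2.15e-06) and Ankrd37 to 3.53, 2.21 and 2.55 CPM (-2.28, adjusted p = 0.00123), levels within or beside their range at 0 h. Slc2a1 stood at 13.7, 13.6 and 13.4 CPM at 24 h (-1.17, adjusted p = 0.00156). Aldoa and Tpi1 were lower at 24 h than at 12 h by 0.83 and 0.87 (adjusted p = 0.00365 and 0.00156) while remaining above 0 h by 0.62 and 0.91 (adjusted p = 0.00386 and 0.000247). The pyruvate and lactate enzymes did not pass the test of the later interval, at -0.55 for Pkm and -0.56 for Ldha (adjusted p = 0.166 and 0.0898).

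**Figure D3:**
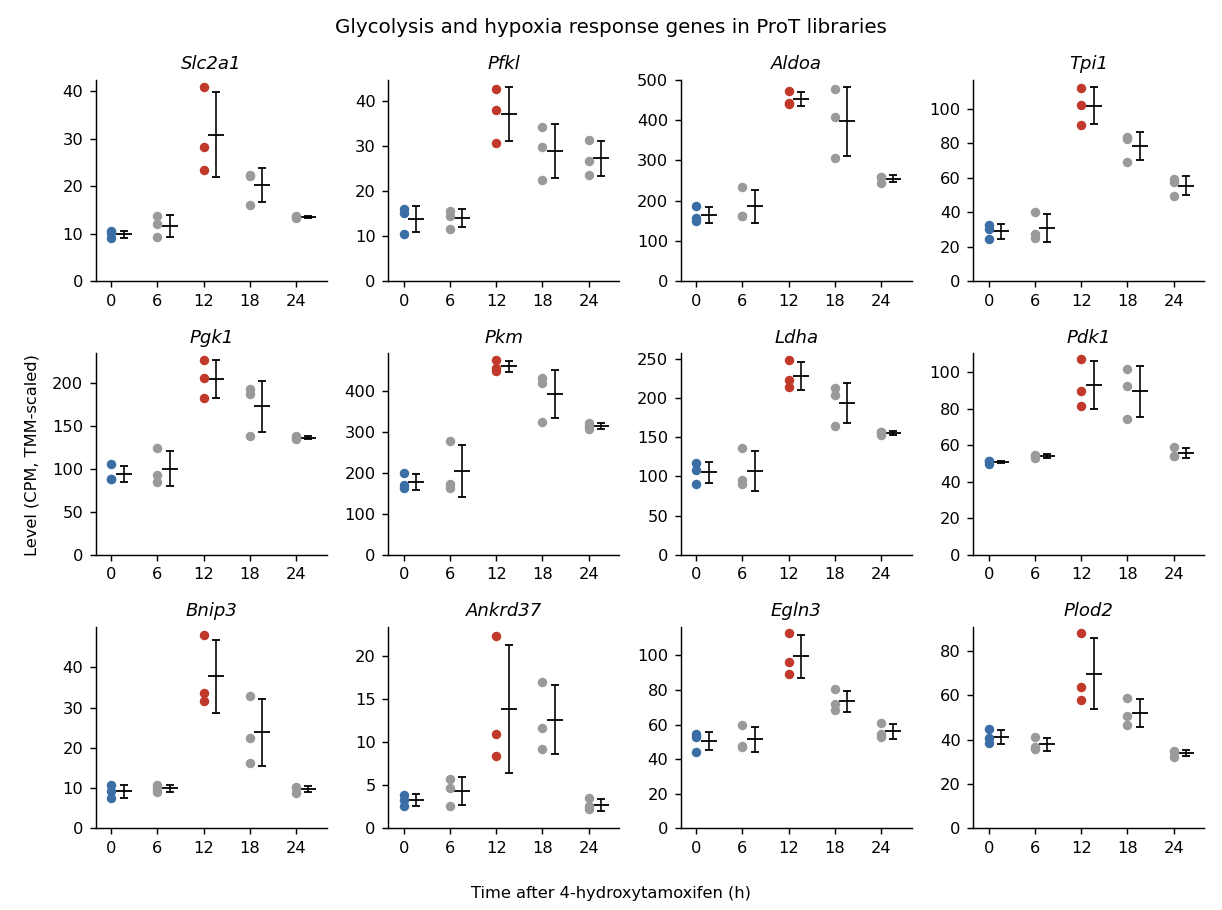
Levels of 12 genes of glucose metabolism and the hypoxia response in each ProT library, in TMM-scaled CPM on axes that start at 0, against hours after 4-hydroxytamoxifen. Dots are libraries (blue 0 h, red 12 h, grey other times) with the mean ± SD of 3 beside them; all 12 genes rose at 12 h, and Bnip3 and Ankrd37 were near their 0 h level at 24 h while Tpi1 and Aldoa were still above it.

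Genes of cell division were higher at 12 h. Of 41 tested mitosis genes 24 rose and 0 fell, beside 6.33% and 5.69% of all tested genes (median log2 difference 0.52), and their summed level was 1813 to 1938 CPM at 0 h and 2595 to 2908 CPM at 12 h. Top2a, topoisomerase II, went from 346, 344 and 341 CPM to 658, 530 and 515 CPM (log2 0.72, adjusted p = 0.000162), and Ccnb2, cyclin B2, from 26.4, 27.8 and 31.7 CPM to 50.1, 52.9 and 57.4 CPM (log2 0.88, adjusted p = 2.91e-05). The groups did not overlap for either gene, as for 29.6% of all tested genes. The kinesin Kif4 and the spindle protein Ckap2l rose by 1.16 and 1.08, and the kinase Plk1 and the survivin gene Birc5 by 0.68 and 0.72. The number of mitosis genes that rose was 18 to 24 when a library was left out. Of 48 tested DNA replication genes 14 rose and 0 fell (median 0.32, beside the same shares of all genes), but the number that rose was 8 without 0 h library 1 and 7 without 0 h library 2. E2f2, a transcription factor of S phase genes, rose from 37.6, 30.9 and 30.4 CPM to 71, 71 and 67.8 CPM (log2 1.10 ± 0.14, adjusted p = 9.13e-06). In bulk RNA, more dividing cells and more RNA of these genes per cell cannot be told apart.

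Other growth and stress groups moved less evenly, and their counts stand beside 6.33% higher and 5.69% lower of all tested genes. Of 30 tested genes of the unfolded protein and heat shock responses 10 rose and 0 fell (median 0.32). The endoplasmic reticulum chaperone Hspa5 rose from 194, 211 and 211 CPM to 371, 311 and 320 CPM (log2 0.70, adjusted p = 0.000174), and the cytosolic chaperone Hsp90aa1 from 335, 339 and 389 CPM to 623, 610 and 588 CPM (log2 0.78). Both were above 0 h in every 12 h library, and 29.6% of all tested genes had no overlap of the groups. Respiratory chain subunits gave 10 higher and 0 lower of 42 (median 0.23), a count that was 1 without 0 h library 1, 2 without 0 h library 2 and 5 without 12 h library 2 or 3. Of 19 tested D cyclin and CDK inhibitor genes 3 rose, 1 fell and 15 were not called, and 2 were called without 0 h library 1 or 2. Cdkn1b, which encodes the inhibitor p27, rose from 111, 108 and 111 CPM to 146, 152 and 178 CPM (log2 0.53, adjusted p = 0.002), and the retinoblastoma gene Rb1 fell from 270, 256 and 270 CPM to 147, 156 and 160 CPM (log2 -0.78, adjusted p = 8.34e-05). Rb1 shares 14.9% of its exon bases with another gene. Of 12 tested MYC network genes 2 rose and 0 fell, and Myc itself was not called (log2 -0.37, adjusted p = 0.144). No BCL2 family gene was called among 15 tested (median 0.03).

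NOTCH and T lineage genes changed selectively. Of 25 tested NOTCH pathway genes 7 rose and 0 fell, beside 6.33% and 5.69% of all tested genes, with a list median of 0.01, and 5 to 7 rose when a library was left out. Il2ra, the interleukin-2 receptor alpha chain CD25 that marks committing thymocytes (chr2:11642807-11693193), rose from 559, 493 and 518 CPM to 1136, 965 and 976 CPM (log2 0.97 ± 0.16, adjusted p = 0.000171). Hes1, the transcriptional repressor directly below NOTCH1, rose from 57.7, 51.6 and 60.1 CPM to 115, 93.8 and 114 CPM (log2 0.93 ± 0.17, adjusted p = 0.000657). In both genes every 12 h library exceeded every 0 h library, and 29.6% of all tested genes had no overlap of the groups. Dtx1, a NOTCH-induced ubiquitin ligase, rose from 13, 12.8 and 21.6 CPM to 42.5, 34.4 and 30.5 CPM (log2 1.13 ± 0.24, adjusted p = 0.00283). Notch1, the receptor, rose from 82, 76.2 and 85.3 CPM to 120, 113 and 109 CPM (log2 0.49, adjusted p = 0.00363). At 6 h Il2ra measured 554, 281 and 511 CPM and Hes1 57.1, 28.8 and 53.9 CPM, so that library 2 of that time lay below the others and none lay above the 12 h range.

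Among 24 tested genes of T lineage commitment 8 rose and 3 fell, beside 6.33% and 5.69% of all tested genes (median 0.19). Cd3g, a subunit of the T cell receptor complex, rose from 61.1, 58.7 and 57 CPM to 90.6, 86.7 and 88.9 CPM (log2 0.59, adjusted p = 0.000855). Zfpm1, the GATA cofactor FOG1, rose from 21.3, 16.4 and 20.4 CPM to 41.1, 34.4 and 32.4 CPM (log2 0.90, adjusted p = 0.00023). Both were above all 0 h values at 12 h, and 29.6% of all tested genes had no overlap of the groups. Tox, a factor of developing T cells, fell from 83.2, 77.9 and 96.2 CPM to 56.6, 49.6 and 47.1 CPM (log2 -0.75, adjusted p = 0.000354). The constant regions of the gamma T cell receptor chain were called while that of the delta chain was not. Tcrg-C1 rose from 353, 350 and 394 CPM to 703, 705 and 569 CPM (log2 0.85 ± 0.12, adjusted p = 3.77e-05) and Tcrg-C2 from 365, 382 and 382 CPM to 586, 551 and 562 CPM (log2 0.59). These constant regions resemble each other closely in sequence, so the division of reads between them is uncertain. Trdc measured 376, 369 and 382 CPM and then 427, 420 and 423 CPM (log2 0.17, adjusted p = 0.281), and Cd163l1, a scavenger receptor of gamma-delta T cells, fell from 64, 66 and 63.7 CPM to 30.5, 39.3 and 33.4 CPM (log2 -0.91, adjusted p = 0.000156).

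**Figure D4:**
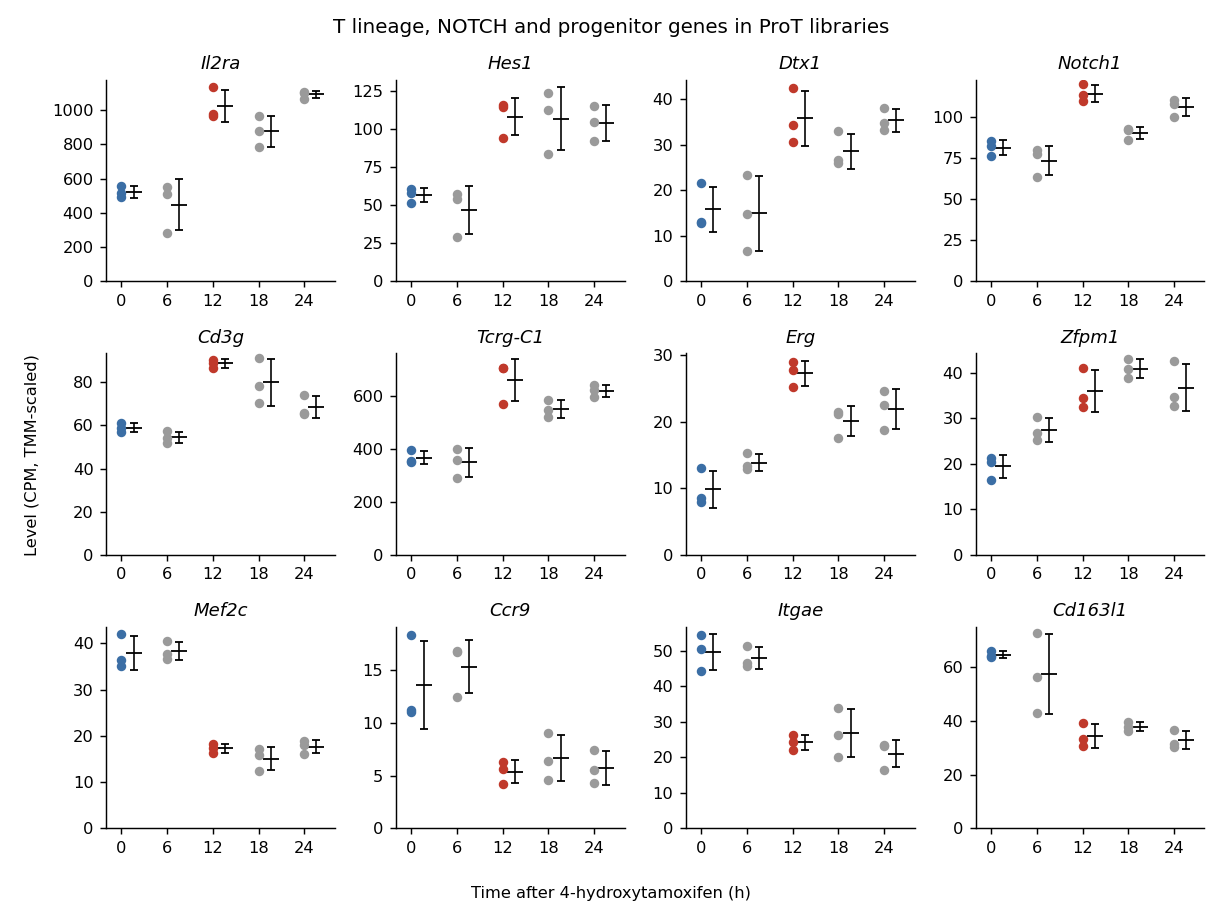
Levels of 12 NOTCH, T lineage, progenitor and trafficking genes in each ProT library, in TMM-scaled CPM on axes that start at 0, against hours after 4-hydroxytamoxifen. Dots are libraries (blue 0 h, red 12 h, grey other times) with the mean ± SD of 3 beside them; Il2ra, Hes1, Dtx1, Notch1, Cd3g, Tcrg-C1, Erg and Zfpm1 were higher at 12 h than at 0 h, and Mef2c, Ccr9, Itgae and Cd163l1 were lower.

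Counts for genes of mature T cells and of migration depended on the scaling. Of 21 tested mature T cell and thymic egress genes 2 rose and 6 fell, beside 6.33% and 5.69% of all tested genes (median -0.12), and with scaling to the total count 2 rose and 3 fell (median 0.07). The number called in either direction was 4, 4 and 3 when 0 h library 1, 2 or 3 was left out, and 3 and 5 when 12 h library 1 or 2 was. Itgae, the integrin alpha chain CD103, fell from 54.4, 50.5 and 44.4 CPM to 24.2, 22.2 and 26.4 CPM (log2 -1.03, adjusted p = 7.76e-05), and Ccr9, the receptor that guides progenitors to the thymus (chr9:123678439-123784330), from 18.4, 11.1 and 11.3 CPM to 4.21, 5.66 and 6.35 CPM (log2 -1.29 ± 0.28, adjusted p = 0.00259). Neither gene had overlapping groups, as for 29.6% of all tested genes, and 21.5% of the exon bases of Ccr9 are shared with another gene. Chemokine receptor and trafficking genes gave 2 higher and 7 lower of 29 (median -0.08), which turned round to 4 higher and 3 lower with scaling to the total count (median 0.11), with 4 or 5 called in all without 0 h library 1, 2 or 3 or without 12 h library 1. T cell receptor signalling genes gave 2 higher and 5 lower of 33 (median -0.19), which turned round to 3 higher and 1 lower with that scaling (median -0.002), with 3 or 4 called without any 1 of the 0 h libraries or without 12 h library 2.

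Of 36 tested cytokine receptor and STAT5 genes 7 rose and 2 fell (median 0.17). For this list and the others of this paragraph, the shares over all tested genes were 6.33% higher and 5.69% lower. The transcription factors Stat5a and Stat5b, which act below the interleukin-7 and interleukin-2 receptors, went from 65.7, 77.7 and 87.8 CPM to 106, 112 and 128 CPM and from 67.8, 59.2 and 59 CPM to 85.5, 98.1 and 111 CPM (log2 0.57 and 0.67, adjusted p = 0.00451 and 0.000808). Socs2, a feedback inhibitor that STAT5 activates, rose from 64.8, 69.7 and 62.5 CPM to 118, 106 and 104 CPM (log2 0.74, adjusted p = 5.06e-05). The groups did not overlap for any of these 3 genes, as for 29.6% of all tested genes. Of 34 PI3K/AKT genes 5 rose and 2 fell (median -0.06, or 0.13 with scaling to the total count), with 3 and 4 called in all without 0 h library 2 or 12 h library 2. FOXO factors and targets gave 5 higher and 1 lower of 29 (median -0.04, or 0.14 with that scaling), with 3 called without 0 h library 1.

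Of 23 tested genes listed as TAL1 targets 6 rose and 3 fell, beside 6.33% and 5.69% of all tested genes (median -0.01, or 0.18 with scaling to the total count), and the number called was 4 or 5 without any 1 of the 0 h libraries or without 12 h library 1. Sema4a, a semaphorin, fell from 88.7, 91.5 and 90.5 CPM to 54.4, 51.7 and 59 CPM (log2 -0.72 ± 0.13, adjusted p = 0.000516), and Stat5a, given above, is on the same list. Of 19 tested E protein targets Cd3g and Notch1 rose and 0 fell (median 0.15). Among 22 tested progenitor genes 3 rose and 4 fell, beside the same shares (median 0.02), and with scaling to the total count 7 rose and 2 fell (median 0.21). Leaving out a library gave 2 to 4 higher and 2 to 4 lower, and 4 in all without 0 h library 2. The list includes 3 genes already described, with Erg rising and Mef2c and Lmo2 falling as given above.

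**Figure D5:**
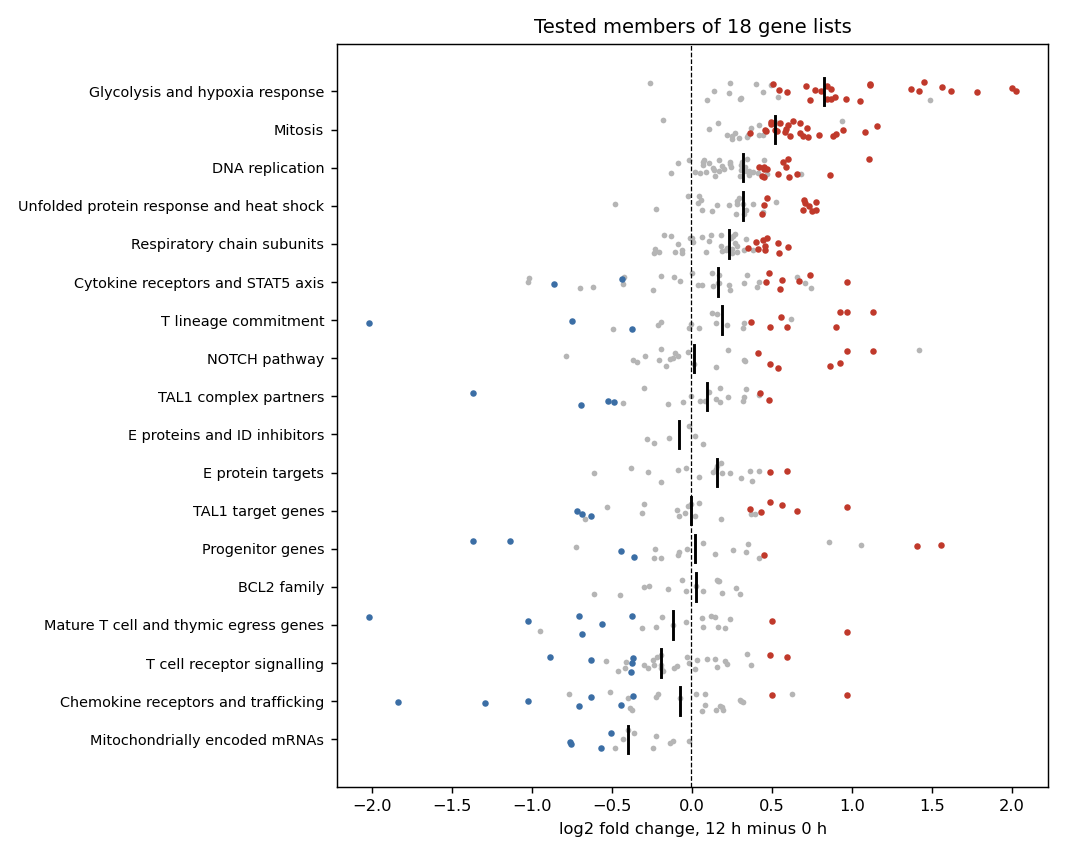
Log2 difference between 12 h and 0 h (one dot per tested gene) in 18 gene lists, red for called higher, blue for called lower and grey for not called, with a black bar at each list's median and a dashed line at the median of all tested genes, -0.006. The glycolysis and hypoxia list has the highest median of those drawn, 0.82, followed by mitosis at 0.52.

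The 7 genes that were higher at 18 h than at 12 h included immediate early genes, which respond within minutes to growth signals. Egr1 was low at 12 h and high at 18 h: 3.35, 7.65 and 3.89 CPM at 0 h, 2.32, 1.22 and 1.23 CPM at 12 h, 58.2, 85.1 and 96.2 CPM at 18 h and 15.8, 22.6 and 14.7 CPM at 24 h. The log2 difference between 18 h and 12 h was 5.59 ± 0.29 (adjusted p = 8.28e-14). The fall of Egr1 from 0 h to 12 h was -1.60 (adjusted p = 0.0138), with adjusted p of 0.159 without 0 h library 2 and 0.0631 without 12 h library 2. Junb rose from 19.3, 11.9 and 17 CPM at 12 h to 34.8, 48.6 and 39.6 CPM at 18 h (log2 1.34, adjusted p = 0.000271), and Zfp36, Ier2 and Dusp2, which dampen or follow the same signals, rose by 1.94, 1.14 and 0.76.

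Markers of other blood cells were measured beside these results, and over all tested genes 6.33% rose and 5.69% fell. Pax5 and Ms4a1, which define B cells, had 0 counts in all 6 libraries. Summed levels were taken over all listed markers, tested or not. For B cells they ran from 24.7 to 33.7 CPM at 0 h and 19.5 to 25.8 CPM at 12 h (0 of 4 tested rose, 1 fell). For myeloid cells they ran from 118 to 129 and 100 to 111 CPM (0 of 11 tested rose, 2 fell). For red cells they ran from 541 to 669 and 497 to 604 CPM (0 of 6 tested rose, 1 fell). None of these lists rose at 12 h. Megakaryocyte and mast cell markers went from 276 to 302 CPM up to 476 to 478 CPM (2 of 4 rose), nearly all of it Cpa3, a mast cell protease that rose from 251, 247 and 273 CPM to 425, 418 and 429 CPM (log2 0.72). The other called gene of that list, Itga2b, rose by 0.80 and had an adjusted p of 0.0506 without 0 h library 2. The part of the Cpa3 signal in the other results was not tested.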

How the data were processed

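RNA was extracted with a Promega Maxwell kit, per the labels' protocols. The deposited tables hold raw counts, 1 whole number for each gene and library, and the submitters' processing notes name FastQC, HISAT2, SAMtools and HTSeq with the builds mm10 and GRCm38, without versions; strand setting and annotation release are not given in the sources used here. Overlapping genes and near-identical copies are therefore uncertain. The 5 summary lines were left out. Of 46078 identifiers 45229 were found in GENCODE M21 (GRCm38), the source of all gene positions, and 27 symbols that had become dates were restored. Promoters came from RefSeq (GRCm38.p6).

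The 15 ProT libraries were fitted together with edgeR 4.0.16 (R 4.3.3; TMM, filterByExpr, quasi-likelihood F test, Benjamini-Hochberg threshold 0.05), and 12 h was compared with 0 h and with the other times. The biological coefficient of variation was 11.6%. Alternatives were DESeq2 1.42.0, its size factors, total-count scaling, no filter, a 1.5-fold threshold, only the libraries compared, a replicate block and leaving out each library. Genes named were Tal1, its complex, the 15 largest changes in each direction among called genes of at least 10 CPM with no overlap of libraries, up to 6 members of each of 47 lists (1162 genes) and genes differing at later times. The members and lists were chosen with earlier results of these data known. Lists overlap: 125 genes were in more than 1. Some genes are not reported here.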

Additional observations from a re-analysis of the deposited data

Results flagged for a closer look

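Several genes that were called at 12 h against 0 h also differed between 12 h and a later time, in a direct test of that interval by edgeR. Over all 13610 tested genes 26 were called for 24 h and 7 for 18 h against 12 h. Lower at 24 h than at 12 h were Ankrd37 (log2 -2.28, adjusted p = 0.00123), Bnip3 (-1.94, adjusted p = 2.15e-06), Slc2a1 (-1.17, adjusted p = 0.00156), Plod2 (-1.03, adjusted p = 0.000129), Tpi1 (-0.87, adjusted p = 0.00156) and Egln3 (-0.822, adjusted p = 0.000711). Each of these kept its call under every alternative tried other than the 1.5-fold threshold, which was applied to counts of genes only. Higher at 18 h than at 12 h were Egr1 (5.59, adjusted p = 8.28e-14), Zfp36 (1.94, adjusted p = 0.000154) and Crebrf (0.575, adjusted p = 0.0362). The calls of Zfp36 and Crebrf at 12 h were less firm. Zfp36 differed from 0 h by -0.97 (adjusted p = 0.0247), and the adjusted p was 0.0659 with scaling to the total count, 0.0939 and 0.0879 when 0 h library 2 or 3 was left out and 0.0727 and 0.0679 when 12 h library 1 or 2 was. Crebrf differed from 0 h by -0.46 (adjusted p = 0.00805, but 0.149 with scaling to the total count and 0.0579 without 12 h library 2). Its adjusted p for 18 h against 12 h was 0.264 with scaling to the total count and 0.0978 with only the libraries compared. It was 0.0534 and 0.427 with 12 h library 1 or 2 left out, and 0.158, 0.399 and 0.0737 with 18 h library 1, 2 or 3 left out.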

How the results depend on the processing

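The number of genes called at 12 h against 0 h was 1635, with 1574 by DESeq2, 1612 without ribosomal and mitochondrial genes (an alternative chosen after seeing the data), 55 against a 1.5-fold threshold (30 higher, 25 lower) and 819 to 1521 with a library left out. The number higher was 432 to 817 and the number lower 387 to 704 with a library left out, the number higher being 497 and 432 without 0 h library 1 or 2 and the number lower 421, 387 and 482 without 0 h library 1 or 2 or 12 h library 2. Scaling to the total count gave 2041 higher and 339 lower. Between 6 h and 12 h, 1477 genes became 56 with the fold threshold, 573 with only the libraries compared and 657 to 2434 with a library left out. Between 12 h and 18 h, 7 became 2, 27 without the filter and 6 to 14 (14 without 12 h library 1). Between 12 h and 24 h, 26 became 3, 121 without the filter and 10 to 213 with a library left out (213 without 12 h library 1, 10 without 12 h library 3, 11 and 13 without 24 h library 1 or 3). The Tal1 difference was -0.42 to -0.58 with a library left out and -0.34 (adjusted p = 0.0541) with scaling to the total count. With the replicate number as a block the counts were 1639, 1542, 9 and 31, and the Tal1 difference was -0.53 (adjusted p = 0.00362). No pairing by number was detected: correlations of deviations in 30 same-numbered pairs ran from -0.143 to 0.213, with 1 over 0.1. These deviations are from means of 3 libraries, so the check cannot exclude a culture or batch shared by number. Of 198 named genes called at 12 h, 120 kept the call under every alternative in which they were tested, the fold threshold aside. Some were not tested in every alternative, such as mitochondrial genes where these were left out. No direction reversed. At this depth a count of 0 allowed up to 1.13 CPM.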
